A study of Rattus norvegicus with 2 samples.

Results

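The Wnt genes of rat bone mesenchymal stem cells (BMSCs) were followed from secreted ligand to nuclear effector in cells given icariin or the solvent DMSO. The set held 54 of the 24210 genes measured. Members were the sequences whose gene symbol, in its older or current form, was Wnt, Fzd, Sfrp or Dkk with a number, and 18 further named genes of the pathway. They were ordered into 5 classes by role: 20 ligands, counting the acyltransferase gene Porcn, 9 Frizzled receptors, 5 co-receptors and alternative receptors, 11 secreted antagonists and 9 intracellular effectors.

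Total RNA was copied into double-stranded cDNA, which was labelled with the single dye Cy3 and hybridised to rat expression arrays of NimbleGen. The study asked which expression profile icariin, a flavonol glycoside of Epimedium used as an osteogenic reference compound, gives in BMSCs. Of the 2 arrays, 1 was of DMSO-treated BMSCs and 1 of icariin-treated BMSCs. The study's methods give icariin as 20 μM for 24 h and describe primary marrow cells of male Sprague–Dawley rats aged 4 weeks, whereas the labels of both samples say female. Cultured marrow is a mixed population, and the sources used here do not say how many animals went into each RNA sample. With 1 array a condition there is no test across samples and no check by replicates. "Higher" and "lower" mean icariin relative to DMSO.

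Wnt proteins are secreted lipid-modified signals. In the β-catenin branch a Wnt protein binds a Frizzled receptor together with the co-receptor Lrp5 or Lrp6, the complex of Axin, Apc and Gsk3b stops marking β-catenin for degradation, and β-catenin joins the Tcf and Lef factors on DNA. Other branches run through Frizzled with Ror2 or the planar polarity proteins. Secreted antagonists bind either the Wnt protein (Sfrp, Frzb and Wif1) or the co-receptor (Dkk1 and sclerostin, the product of Sost). In bone, loss of LRP5 lowers and loss of sclerostin raises bone mass in humans, which makes the pathway a common object of study in osteogenic cultures.

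Among the members read above background on both arrays, the differences of greatest size lay at Frizzled receptors. Fzd1 and the sequence named Fzd7 were more than 2-fold higher, Fzd8 and Fzd2 were higher by less, and Fzd4 was lower. Lrp5, Lrp6 and Ror2 were each higher by less than 1.4-fold. Of the antagonists, Sfrp1, Frzb and, by less, Dkk3 were lower, while Sfrp2, Sfrp4 and Dkk1 scarcely differed. Wnt5a was higher by about as much as Ror2. Among the effectors, Tcf7 was higher by about as much as Sfrp1 was lower, and Tcf7l2 was higher and Lef1 lower by less. Apc was lower by about as much as Frzb, and Ctnnb1, Gsk3b and Axin1 differed by less. Most ligands were too dim to tell.

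Each array read 26419 sequences, nearly all through 5 probes, at a median intensity of 140 with DMSO and 142 with icariin. Controls of random sequence gave 73.8 and 78.4. Olfactory and vomeronasal receptor genes, which stromal cells are taken not to use, served as the class of silent genes. The 95th percentile of these 1425 genes, called the receptor level, was 148 with DMSO and 168 with icariin. A gene above it on an array is called detected there, as 11633 and 10638 genes were. The log2 difference is the icariin value minus the DMSO value, with log2 values averaged over the sequences of a gene, and its median over all genes was -0.02. Intensities of different genes are not comparable with each other, because each probe has its own response.

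Of the 54 members, 25 were detected on both arrays, 7 on 1 and 22 on neither, beside 9255, 3761 and 11194 of all 24210 genes. At the 99th percentile of the receptor genes, 221 with DMSO and 271 with icariin, 23 members in place of 32 exceeded the level on at least 1 array. Below the receptor level a value cannot be told from a silent gene, so no fold is given there. A member detected on 1 array has a bound, written "at least", for which its dimmer value was raised to 168. This bound is a convention, since some silent genes lie above it.

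Markers of the labelled cells and of cells that a marrow culture can hold were read on the same arrays. Of 16 stromal markers, 15 lay above the receptor level on at least 1 array, among them Pdgfrb (2051 and 3067) and Col3a1 (17002 and 23729), while Vcam1 was at least 2.38-fold lower (401 and 79.6) and Lepr was above it on neither. All 13 macrophage markers were higher with icariin, 9 of them at least 2-fold (6.51% of all genes were), with a median log2 difference of 1.37 and differences from 0.29 to 3.10. The summed intensity of the 13 macrophage markers was 6260 with DMSO and 19335 with icariin, a sum that weighs the brightest probes most. Of these markers 9 were detected with DMSO and 13 with icariin, and Lyz2 read 318 and 2727. Of 5 other leukocyte markers 3 were at least 2-fold higher and 1 lower, and their sum was 724 with DMSO and 1561 with icariin. Of the 6 osteoblast, 5 endothelial and 4 adipocyte markers, 1 was at least 2-fold lower as read (7.01% of all genes were). This was the endothelial Pecam1 (269 and 52.8), whose bound is at least 1.598-fold lower. Of the 2 endothelial markers detected on both arrays, Cdh5 was 1.82-fold higher (172 and 314) and Vwf was lower (398 and 265). With values raised to 168, 7 macrophage and 2 other leukocyte markers stayed at least 2-fold higher. No other leukocyte or endothelial marker then stayed 2-fold lower. The arrays thus differed in macrophage markers as well as in the Wnt members described next, and the part of those markers in any Wnt value was not tested. In bulk RNA, fewer cells of a type and less RNA per cell cannot be told apart, nor can treatment and culture with 1 array a condition.

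**Figure D1:**
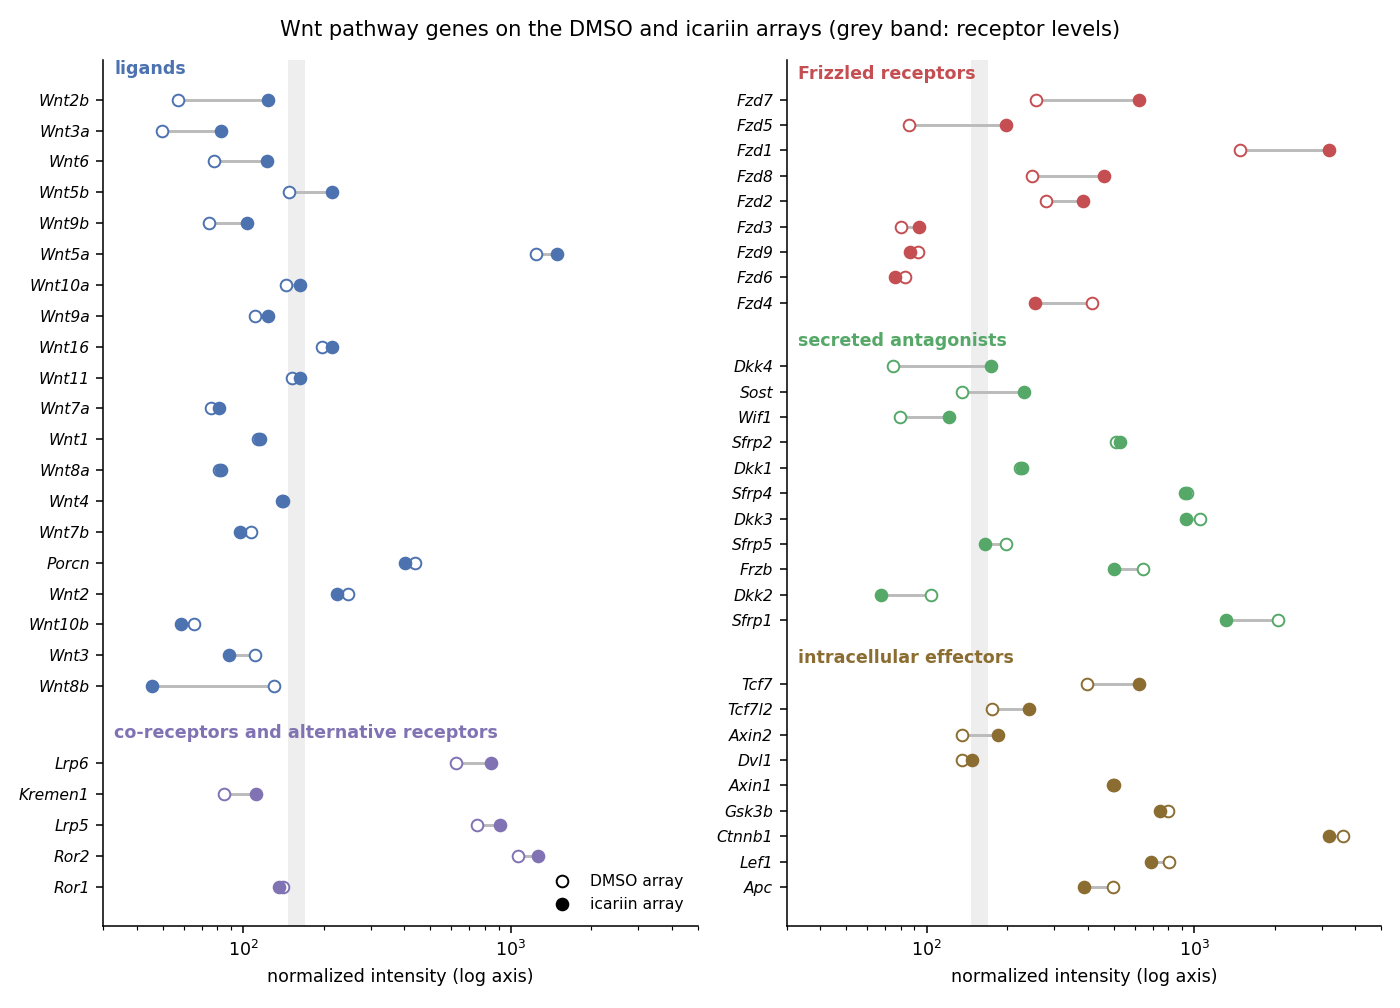
Normalized intensity (log axis) of each of the 54 Wnt members on the DMSO array (open circles) and the icariin array (filled circles), by class and sorted by the log2 difference, with a grey band from 148 to 168 for the receptor levels of both arrays. Fzd1, Fzd7 and Fzd8 shift to the right well clear of the band, Fzd4 and Sfrp1 shift to the left, and the 14 ligands detected on neither array, together with Wnt11, lie within the band or to its left.

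The start regions of 4 members are shown because they hold, or lack, the letters that Tcf and Lef factors are known to prefer. They comprise a pair of Frizzled genes with opposite differences (Fzd1 and Fzd4), the gene Fzd7, and Axin2, a known feedback target of the pathway. The sequences are from RefSeq on the GRCr8 assembly, run from 250 bases before to 50 bases after the annotated start, and lie on the + strand. Capitals mark the 4 searched motifs on either strand. The first is AACAAAG and the second is ATCAAAG, while the third is TACAAAG and the fourth is TTCAAAG. Read from the other strand, the fourth appears as CTTTGAA and the second as CTTTGAT.
Fzd1, chr4:30264824-30265123: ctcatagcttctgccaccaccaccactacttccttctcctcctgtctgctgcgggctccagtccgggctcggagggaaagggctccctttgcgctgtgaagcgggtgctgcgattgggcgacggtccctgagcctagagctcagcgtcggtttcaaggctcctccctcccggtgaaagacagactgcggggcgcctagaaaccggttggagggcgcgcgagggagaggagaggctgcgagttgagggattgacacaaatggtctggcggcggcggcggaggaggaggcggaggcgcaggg
Fzd4, chr1:152692257-152692556: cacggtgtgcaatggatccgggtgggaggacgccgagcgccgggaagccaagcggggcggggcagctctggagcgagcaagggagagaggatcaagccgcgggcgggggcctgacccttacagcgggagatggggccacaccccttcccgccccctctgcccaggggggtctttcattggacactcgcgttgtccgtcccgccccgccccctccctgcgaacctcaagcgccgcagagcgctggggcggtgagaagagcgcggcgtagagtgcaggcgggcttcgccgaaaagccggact
Fzd7, chr9:68425288-68425587: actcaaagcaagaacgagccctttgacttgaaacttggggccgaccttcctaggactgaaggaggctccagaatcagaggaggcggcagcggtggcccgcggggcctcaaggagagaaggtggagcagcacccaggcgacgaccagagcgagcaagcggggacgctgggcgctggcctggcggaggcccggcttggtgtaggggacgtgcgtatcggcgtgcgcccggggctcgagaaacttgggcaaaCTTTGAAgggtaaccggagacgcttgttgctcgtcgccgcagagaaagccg
Axin2, chr10:94398535-94398834: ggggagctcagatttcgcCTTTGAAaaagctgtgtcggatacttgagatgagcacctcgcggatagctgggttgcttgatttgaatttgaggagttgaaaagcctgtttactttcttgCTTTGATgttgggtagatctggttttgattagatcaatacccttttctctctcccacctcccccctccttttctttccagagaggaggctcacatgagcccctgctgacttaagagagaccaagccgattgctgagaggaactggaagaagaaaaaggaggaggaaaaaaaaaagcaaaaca
Fzd1 and Fzd4 had no match in this window. Fzd7 had 1, beginning at position -1 from the start, and Axin2 had 2, at -232 and -132. Of the members, 39 had a promoter in the table, and 7 of these (17.9%) held a match, beside 5719 of all 33469 promoters (17.1%). The share of Wnt members with these letters was therefore close to that of all genes. Of 6 Frizzled promoters 1 had a match. A match describes letters only, and factor binding was not measured.

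Counted over all members, 5 of 54 were at least 2-fold higher on the icariin array, beside 6.51% of all genes, and 1 of 54 was at least 2-fold lower, beside 7.01%. The higher ones were Fzd1, Fzd7, Fzd5, Dkk4 and Wnt2b and the lower one was Wnt8b. Fzd5 and Dkk4 lay below the receptor level with DMSO, and Wnt2b and Wnt8b lay below it on both arrays. The 25 members detected on both arrays held 2 higher at this fold (Fzd1 and Fzd7), beside 2.96% of the 9255 genes measured that way, and none lower, beside 4.39%. At 1.5-fold, Fzd1, Fzd7, Fzd8 and Tcf7 were higher, 4 of 25 beside 10.2%, and Fzd4 and Sfrp1 were lower, 2 of 25 beside 14.5%. Each of these counts is of few genes, and none was tested against the share of all genes. The median log2 difference was 0.10 over the 54 members and 0.03 over the 25, where 14 were higher and 11 lower by any amount. Those 9255 genes had a median of -0.05, with 4263 higher and 4985 lower by any amount.

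The arrays offer 1 kind of spread, that between separate sequences of the same gene, which is between probe sets and not between cultures. Among 485 genes with several sequences that were detected on both arrays, the log2 differences of a gene's sequences spanned a median of 0.40, and 11.5% spanned 1 or more. Their pooled SD was 0.43. Of the members, 50 rest on 1 sequence of 5 probes. The differences of Fzd1, Fzd7, Fzd8, Fzd4, Tcf7 and Sfrp1 were larger than this SD, and those of Fzd2, Tcf7l2 and Lrp6 were just above it. Those of the remaining members detected on both arrays were below it. The share of all genes past this SD was not counted. The difference of Lrp6 was above that of 83.5% of the genes detected on both arrays, so passing this SD does not set a member apart.

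The Frizzled receptors, the membrane proteins that bind Wnt through an outer cysteine-rich domain, had a median log2 difference of 0.46, beside -0.02 for all genes. Of the 9 genes, 6 were higher and 3 lower by any amount, beside 11749 higher and 12448 lower of all 24210 genes. At least 2-fold higher were 3 of the 9, beside 6.51% of all genes. Of these 3, Fzd5 was below the receptor level with DMSO, and the sequence named Fzd7 is of doubtful identity. Over the 5 detected on both arrays the median was 0.89, with 4 higher and 1 lower by any amount. At least 2-fold higher were 2 of them, Fzd1 and the sequence named Fzd7. The 9255 genes detected on both arrays had a median of -0.05, with 4263 higher and 4985 lower by any amount and 2.96% at least 2-fold higher.

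Fzd1 read 1488 with DMSO and 3195 with icariin, a ratio of 2.15 and a log2 difference of 1.10. Both values lay above the 99th percentile of the silent genes, and the difference was above that of 97.9% of the genes measured on both arrays. The sequence named Fzd7 read 256 and 624, a ratio of 2.44 and a log2 difference of 1.28. The array annotates it as the predicted gene Fzd7, but the gene identifier it carries now belongs to the kinase gene Cdk15 in RefSeq, the neighbouring entry Als2cr7, an older name of Cdk15, read 73.6 and 72.8, and the present Fzd7 has another identifier. The value may therefore belong to another transcript than that of the Fzd7 promoter shown. Without it, the median of the remaining 8 Frizzled genes was 0.34.

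Fzd8, listed in the file under its clone name MGC112790, read 248 and 460, a ratio of 1.85. Its log2 difference was 0.89. Fzd2, a receptor known for both β-catenin and other branches, read 280 and 385, a ratio of 1.37. Fzd4, which also binds the ligand norrin in retinal vessels, went the other way, with 416 for DMSO and 254 for icariin, a ratio of 1.64 and a log2 difference of -0.71. Its icariin value lay above the 95th but not the 99th percentile of the silent genes. Fzd4 was thus the single Frizzled gene detected on both arrays that was lower with icariin.

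Fzd5 read 86.2 with DMSO and 199 with icariin, which gives a ratio of at least 1.18. Only the icariin value exceeded the receptor level, and it stayed below the 99th percentile there. Fzd3 (80.2 and 94.0), Fzd6 (83.0 and 76.4) and Fzd9 (92.9 and 86.6) lay in the range of the silent class on both arrays. A sequence for Fzd10 was not analysed here.

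**Figure D2:**
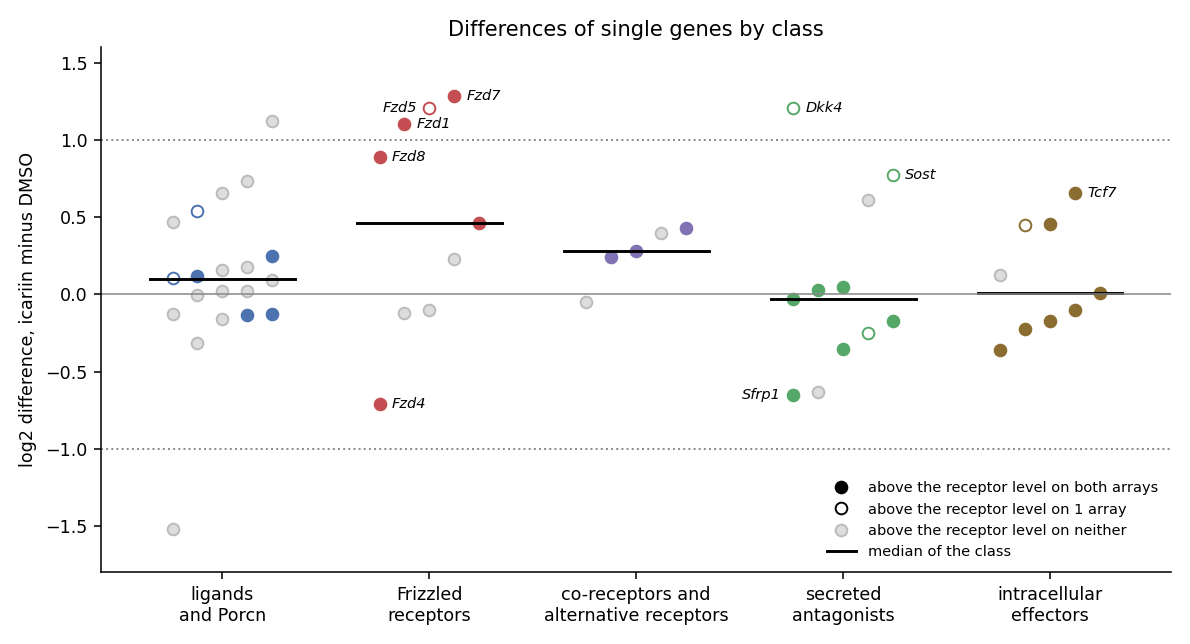
Log2 difference (icariin minus DMSO) of each Wnt member by class, with filled points for members detected on both arrays, open points for 1 array, grey points for neither, a black line at the class median and dotted lines at 2-fold. The Frizzled receptors have the highest median (0.46) and span from -0.71 for Fzd4 to 1.28 for Fzd7, the co-receptors follow with 0.28, and the medians of antagonists (-0.03) and effectors (0.01) lie near 0.

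The co-receptors and alternative receptors had a median log2 difference of 0.28. Lrp5 read 749 with DMSO and 908 with icariin, a ratio of 1.21, and Lrp6 read 625 and 843, a ratio of 1.35. Both are single-pass co-receptors whose inner tails recruit Axin. Ror2, a receptor tyrosine kinase that answers Wnt5a, read 1068 and 1265, a ratio of 1.19. These 3 genes were the members of the class detected on both arrays, and all were higher with icariin by less than 0.44 on the log2 scale. Ror1 (141 and 136) and Kremen1, which pairs with Dkk proteins to remove Lrp6 (84.9 and 112), were detected on neither.

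Few ligands were detected. Of the 20 ligand-class genes, 4 were detected on both arrays, 2 on 1 and 14 on neither. Of all 24210 genes, 9255 were detected on both, 3761 on 1 and 11194 on neither, and the difference was not tested. Wnt5a, the main ligand of the branches without β-catenin, exceeded the 99th percentile of the silent genes on both arrays, at 1246 with DMSO and 1483 with icariin, a ratio of 1.19 and a log2 difference of 0.25. Porcn, whose product attaches the lipid that Wnt proteins need for secretion, read 440 and 403. Wnt2 read 246 and 224, and Wnt16, a ligand known for its part in cortical bone, read 197 and 214. Wnt2 exceeded the 99th percentile of the silent genes on the DMSO array alone, and Wnt16 did so on neither.

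Wnt5b read 148 with DMSO, just below the receptor level, and 215 with icariin, at least 1.27-fold higher. Wnt11 read 152 and 163, above the level with DMSO alone, and no fold is given because neither value exceeds 168. The 14 other ligands lay between 49.6 for Wnt3a and 145 for Wnt10a on the DMSO array and between 45.6 for Wnt8b and 164 for Wnt10a on the icariin array. Among them were Wnt1 (114 and 116), Wnt3 (111 and 88.8), Wnt4 (140 and 140) and Wnt10b (65.4 and 58.5), ligands known to signal in bone cells. Wnt2b (57.1 and 124) and Wnt8b (131 and 45.6) carried the 2-fold counts of this class without leaving the range of silent genes. Over the ligand class the median log2 difference was 0.10, with 13 higher and 7 lower by any amount. Of all 24210 genes, 11749 were higher and 12448 lower. For the 14 ligands in the silent range the direction cannot be read. Over the 4 detected on both arrays the median was -0.01, with 2 higher and 2 lower.

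Wnt3a, Wnt6, Wnt9a and Tcf7l2 had 2 sequences each. For Wnt9a, 1 sequence read 208 and 265, detected on both arrays, while the other read 58.7 and 57.5, so the gene's level depends on the probe set. The Wnt6 sequences had log2 differences of 0.90 and 0.41 and the Wnt3a sequences 1.00 and 0.46, all at values of the silent range. The Tcf7l2 sequences, annotated as transcript variants, had 0.73 and 0.19.

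The secreted antagonists had a median log2 difference of -0.03, with 5 higher and 6 lower by any amount, beside 11749 and 12448 of all 24210 genes. The Sfrp proteins and Frzb carry a Frizzled-like domain that binds Wnt. Sfrp1 read 2058 with DMSO and 1312 with icariin, a ratio of 1.57 and a log2 difference of -0.65, lower than that of all but 12.1% of the genes detected on both arrays. Frzb read 643 and 504, a ratio of 1.28. Sfrp5 read 198 and 166, at least 1.17-fold lower, with the icariin value just below the receptor level. The other family members scarcely differed, with 509 and 527 for Sfrp2 and 944 and 923 for Sfrp4.

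The Dkk proteins and sclerostin act on the co-receptors, with the exception of Dkk3, whose action on Wnt is less clear. Dkk1 read 224 and 228 and Dkk3 read 1048 and 932, so both differed by less than 1.2-fold. Sost, known as a gene of osteocytes, read 136 with DMSO and 232 with icariin, at least 1.38-fold higher, and the icariin value lay below the 99th percentile of the silent genes. Dkk4 read 75.2 and 174, at least 1.03-fold higher, so its place among the 2-fold members rests on a value near background. Dkk2 (104 and 67.4) and Wif1 (79.4 and 121) were above the receptor level on neither array. The sequences for Dkk2 and Dkk4 were named through RefSeq. The array itself names the Dkk2 entry Dkk4, and lists the Dkk4 entry under a number.

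The intracellular effectors had a median log2 difference of 0.01, with 5 higher and 4 lower by any amount, beside 11749 and 12448 of all 24210 genes. Ctnnb1, the gene of β-catenin, read 3606 with DMSO and 3204 with icariin, a ratio of 1.13 and a log2 difference of -0.17. Of the complex that marks β-catenin for degradation, Axin1 read 499 and 501, Gsk3b, its kinase, 800 and 746, and Apc, its large scaffold, 500 and 389. Apc had the largest difference of these, 1.29-fold lower. Dvl1, an adaptor below Frizzled, read 136 and 148, above the receptor level on neither.

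Among the DNA-binding partners of β-catenin, Tcf7 read 397 and 625, a ratio of 1.57 and a log2 difference of 0.65. Tcf7l2 read 176 and 241 as a mean of its sequences, a ratio of 1.37, with both values below the 99th percentile of the silent genes. Lef1 read 807 and 690, 1.17-fold lower. The factors of 1 family thus lay on both sides of 0. Axin2 read 136 with DMSO and 185 with icariin, at least 1.10-fold higher, and its icariin value lay below the 99th percentile of the silent genes.

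**Figure D3:**
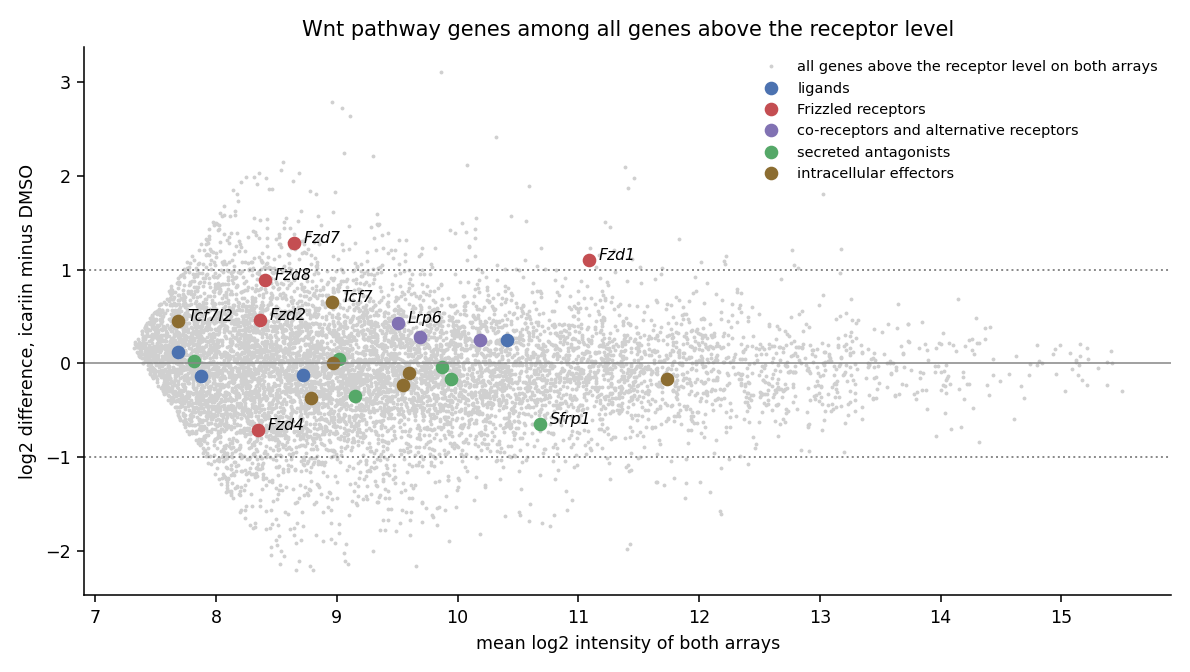
Log2 difference (icariin minus DMSO) against mean log2 intensity for the 9255 genes detected on both arrays (grey) and the 25 Wnt members among them (coloured by class), with dotted lines at 2-fold. Fzd1 and Fzd7 lie above the upper dotted line and the other members lie between the lines. Fzd1 stands at a higher mean intensity than Fzd7 and Fzd8. How the scatter varies with intensity was not measured.

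Other genes of the pathway were listed by role. Of 58 that were no members, 53 were measured, 34 of them detected on both arrays. The median log2 difference was -0.07 over the 53 and -0.09 over the 34. By any amount, 13 of the 34 were higher and 21 lower, beside 4263 and 4985 of the 9255 genes detected on both arrays. Past 2-fold, 1 of the 34 was higher and 1 lower, beside the shares of 2.96% and 4.39% given above. The higher one, Ccnd1, is a target of the pathway. Celsr2, an atypical cadherin of planar polarity, was the lower one, with 1174 for DMSO and 401 for icariin, a ratio of 2.93. Prickle2, a cytoplasmic protein of the same system, was 1.61-fold higher (250 and 401), and Ryk, an alternative Wnt receptor, was 1.41-fold lower (752 and 535).

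Of the genes of secretion, Wls, the carrier that takes Wnt proteins to the cell surface, read 1478 and 1139, 1.30-fold lower. Among the R-spondin receptors and ligases, Rnf43, which removes Frizzled from the membrane, was 1.46-fold lower (266 and 183), Lgr4 was even (357 and 359), and Lgr6 was at least 1.28-fold higher (124 and 216). Of the further antagonists, Nkd1, which binds Dishevelled, was at least 1.55-fold lower (261 and 153), its relative Nkd2 was 1.26-fold higher (245 and 309), and Lrp4, which anchors sclerostin, read 152 and 90.6 and was detected with DMSO alone. In the cytoplasm the casein kinase genes Csnk1d (4788 and 3187) and Csnk1a1 (2513 and 1681) were lower, with log2 differences of -0.59 and -0.58, and Tnks2, a tankyrase that destabilises Axin, at least 1.35-fold lower (227 and 163). Of the nuclear cofactors, Tle4, a co-repressor, was 1.62-fold lower (297 and 182), Bcl9 was 1.48-fold lower (413 and 278) and Pygo2 was 1.55-fold higher (282 and 436). Bcl9 and Pygo2 belong to 1 co-activator complex and differed in opposite directions.

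Genes known as targets of the pathway asked whether its output differed. Of 13 listed, 12 were measured, with a median log2 difference of 0.41, and 2 of these, Axin2 and Lef1, are members. Of the 9 detected on both arrays, 5 were higher and 4 lower. Ccnd1, the cyclin of the G1 phase and a target of many other pathways, read 891 and 1848, a ratio of 2.07. Gja1, the gap junction protein connexin 43, was lower, at 27259 and 15251, a ratio of 1.79. Nkd1 was at least 1.55-fold lower and Lef1 1.17-fold lower, while Axin2 was at least 1.10-fold higher. The targets thus lay on both sides of 0.

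**Figure D4:**
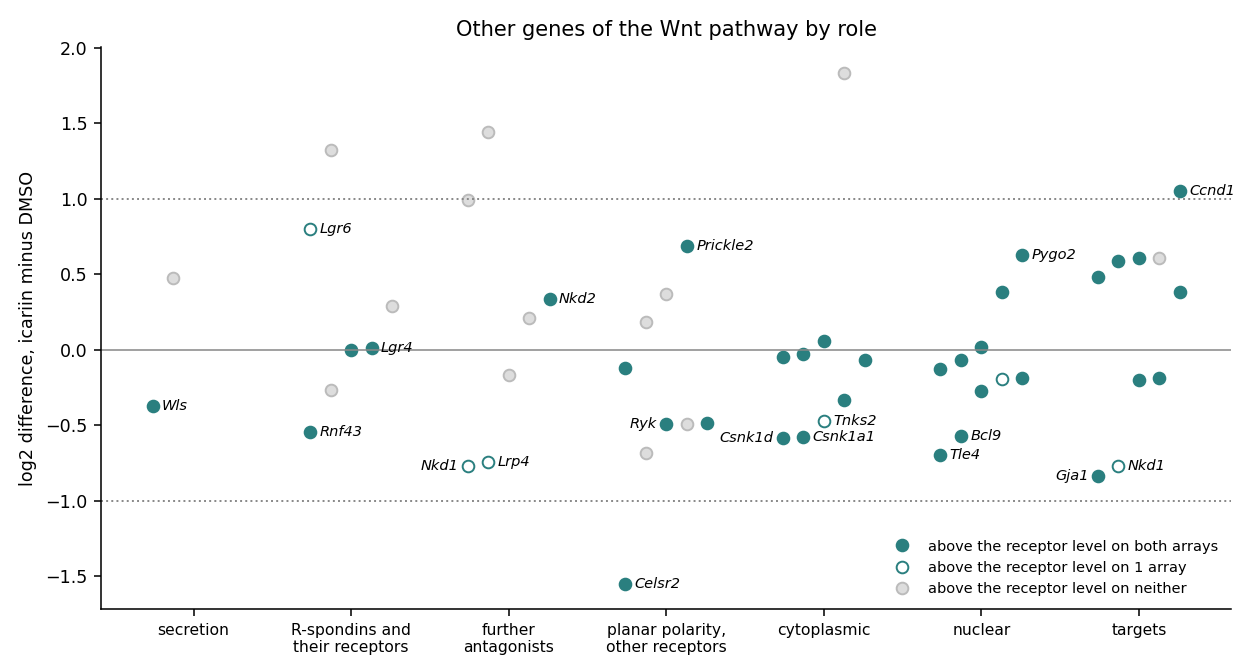
Log2 difference (icariin minus DMSO) of the measured Wnt pathway genes that are no members, by role, with filled points detected on both arrays, open points on 1 array and grey points on neither, and dotted lines at 2-fold. Nkd1 stands under both antagonists and targets. Ccnd1 (ratio 2.07) and Celsr2 (ratio 2.93) are the filled points past the dotted lines.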

How the data were processed

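Each condition was measured on 1 array. The deposited intensity values are linear. The authors had quantile-normalized the probes and summarised them per sequence by RMA in NimbleScan, whose version is not given in the sources used here. Quantile normalization would hide a change of all transcripts in 1 direction. A table of both arrays repeats 20045 of the 26419 sequences, with differences of 0.0288 at most. The standard error per sequence has no stated scale and was not used.

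RefSeq on GRCr8 supplied the names, 20681 by gene identifier and 31 by accession, and 5707 kept the file's symbol. Of 58 member sequences, 57 carried the member's name by identifier, and the sequence named Fzd7 did not. Log2 values were averaged per gene. With 1 array a condition, no test was run and no p-value or SD across samples was made, and the number of arrays limits the precision. Genes were counted at 2-fold, and the code was checked on simulated data.

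Members, classes, lists and the level were chosen with earlier results of these data known. Every member may be named. Of other pathway genes and markers, up to 3 a list with the largest difference above the receptor level were named, and Lepr was named after its value was seen. Alternatives were the value table, a loess of the difference on level (span 0.3), centring, the brightest sequence, sequences in place of genes, 64 added, a floor, filters on the receptor level, another class or percentile for it, and folds of 1.5 and 3. Python 3.11.15, numpy 2.4.6, pandas 2.3.3, statsmodels 0.14.6 and matplotlib 3.10.9 were used.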

Additional observations from a re-analysis of the deposited data

How the results depend on the processing

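Of 79 alternative values of the counts and medians, 61 stayed close to the main value (counts within 1.5 times, medians within 0.1 on the log2 scale) and 18 moved. A reversal was defined for medians alone, as a change of sign with both values more than 0.1 from 0, and 0 were found. Main medians within 0.1 of 0 could not meet this rule, so it says nothing of their direction. No paired analysis was possible because each condition has 1 array.

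The 5 members at least 2-fold higher became 2 with 64 added to both values, with values raised to the floor, and among members above the receptor level on both arrays. The 2 were Fzd1 and Fzd7 each time. They became 11 at a fold of 1.5 and 0 at a fold of 3. The 1 member lower became 0 with 64 added, with the floor, under each filter on the receptor level and at a fold of 3, and 4 at a fold of 1.5. By construction, an offset, a floor or a filter takes out differences between dim values.

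The median of the Frizzled receptors, 0.46, was 1.00 in the value table, which holds 6 of the 9 genes, and 1.00 among genes above the receptor level on at least 1 array. It was 0.89 among those above it on both arrays, 0.24 with the floor, and 0.34 without the sequence named Fzd7, an alternative chosen after seeing the data. It stayed above 0 in each, but these settings reuse the same 2 arrays and are no independent support. The value table leaves out sequences that read at most 100, so it acts as a filter on intensity too. It holds the same 6 Frizzled genes as the filter on at least 1 array, which Fzd5 passes through its icariin value alone. Among genes above the level on both arrays, the ligand median of 0.10 became -0.0052 and the effector median of 0.01 became -0.10, so neither has a settled direction. The antagonist median, -0.03, was 0.06 after loess and 0.01 after centring, and has none either.

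The silent genes limit the reading. Most ligands cannot be told from them, and absence was not shown.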
